A study of Mus musculus with 74 samples.

Results

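GPS2 peaks at distal active enhancers of the mouse liver were taken from the GPS2 ChIP-seq of Gps2 WT liver. ChIP-seq sequences the DNA that an antibody pulls down, and a tag is 1 sequenced fragment end counted under a peak. A peak was a member if it had a row of tag counts, lay more than 1000 bp from the nearest annotated transcription start site (TSS), shared at least 1 bp with an H3K27ac peak in both Gps2 WT lists and touched no H3K4me3 peak in either Gps2 WT list. This held for 17460 of the 48966 peaks that had a row, or 35.7%. Another 18513 peaks, called promoter peaks here, overlapped H3K4me3 in both lists, and 7402 peaks carried neither mark. The name promoter peaks goes by the mark alone, as 11717 of them (63.3%) lay up to 1000 bp from a TSS and the rest farther away. The member nearest to the limit lay 1004 bp upstream of the Cds2 TSS with 12 GPS2 tags in WT, and the nearest peak left out lay 999 bp upstream of Lncppara with 25 tags.

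Livers came from male C57BL/6 mice of 8 to 12 weeks fed a chow diet. Gps2, Ncor and Smrt LKO livers lacked the gene in hepatocytes only, through floxed alleles and a Cre driven by the albumin promoter, and their controls carried the floxed alleles and are called WT as in the labels. Ppara KO mice lacked the gene in every tissue, so that cells other than hepatocytes differed as well. Proteins were crosslinked to DNA in whole liver, and material of several ChIPs was pooled into each library.

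GPS2 was measured in 1 WT and 1 LKO library of the Gps2 line, 3 and 3 of the Ncor line and 3 and 3 of the Ppara line. NCOR was measured in 3 and 3 libraries of the Gps2 and of the Ppara line. PPARα was measured in 3 and 3 libraries of the Gps2 and of the Ncor line and in 2 and 2 of the Ppara line. H3K27ac was measured in 2 and 2 libraries of the Gps2 line and in 3 and 3 of the Ncor and of the Smrt line. RNA-seq covered 4 Gps2 WT and 4 Gps2 LKO livers. The 58 ChIP libraries used for these readouts held 7.9 to 46.1 M tags and the RNA libraries 13.2 to 20.1 M reads, where M stands for 1000000.

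GPS2 is a small subunit of the corepressor complex that holds HDAC3, TBL1 proteins and NCOR or SMRT, the large scaffold subunits. Nuclear receptors bring this complex to enhancers, where HDAC3 removes acetyl groups from histones. PPARα is a nuclear receptor that is activated by fatty acids, binds DNA with RXR at paired AGGTCA elements called DR1, and drives fatty acid oxidation and ketone body formation in the fasting liver. H3K27ac marks active enhancers and promoters, whereas strong H3K4me3 marks promoters.

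The DNA under some members is shown here for the elements that they hold, read from the mm9 genome. The first pair was chosen because it matched DR1 with at most 1 mismatch, as only 2.88% of member windows did. In the first pair, capitals mark the best match to the DR1 element on the minus strand. The G6pc member at chr11:101212538-101212674 lay 16424 bp upstream of G6pc, the glucose-releasing phosphatase, and matched DR1 with 0 mismatches. The window at chr7:52866141-52866280 holds the member that lay 4648 bp downstream of the TSS of Fgf21, the fasting hormone of liver, in a SINE repeat, and matched with 1 mismatch.
G6pc: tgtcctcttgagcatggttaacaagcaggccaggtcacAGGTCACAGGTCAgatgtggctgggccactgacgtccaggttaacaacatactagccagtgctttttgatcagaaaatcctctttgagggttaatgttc
Fgf21: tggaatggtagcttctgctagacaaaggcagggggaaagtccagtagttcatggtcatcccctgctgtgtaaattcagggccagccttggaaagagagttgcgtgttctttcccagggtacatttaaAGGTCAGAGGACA

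The next 3 members lay at genes where H3K27ac rose in Ncor LKO, and were chosen for print after these values were seen. Capitals mark every match to the other motifs searched, and the plus strand is printed. The Pdk4 member at chr6:5421100-5421236 held 1 C/EBP match, the Cyp4a10 member at chr4:115191853-115191989 held 1 C/EBP and 2 STAT matches, and the Ehhadh member at chr16:21783018-21783154 held 1 FOXA match. Their best DR1 matches had 2, 4 and 4 mismatches. Pdk4 encodes the kinase that shuts off pyruvate dehydrogenase, Cyp4a10 a fatty acid hydroxylase and Ehhadh the bifunctional enzyme of peroxisomal β-oxidation.
Pdk4: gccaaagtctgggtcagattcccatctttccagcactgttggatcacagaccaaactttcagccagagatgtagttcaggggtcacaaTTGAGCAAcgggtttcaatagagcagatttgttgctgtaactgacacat
Cyp4a10: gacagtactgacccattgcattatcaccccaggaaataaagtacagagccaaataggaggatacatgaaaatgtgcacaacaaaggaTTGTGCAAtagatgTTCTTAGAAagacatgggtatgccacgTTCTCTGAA
Ehhadh: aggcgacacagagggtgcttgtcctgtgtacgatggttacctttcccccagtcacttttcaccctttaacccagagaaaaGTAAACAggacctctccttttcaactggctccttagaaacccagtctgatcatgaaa

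Members sat mostly in introns and between genes. 9347 of them (53.5%) were intronic, 7154 (41%) intergenic, 349 (2%) near a transcript end, 282 (1.62%) exonic and 244 (1.4%) in a 3′ UTR. The median distance to the nearest TSS was 21369 bp, with quartiles of 9459 and 50386 bp. 3616 members (20.7%) lay in an annotated repeat, and 8 in a CpG island. They were nearest to 6532 genes, of which 2761 had 1 member and 174 had 10 or more. Rreb1 had 24, Pik3r1, a regulatory subunit of PI3 kinase, had 22, Nfia had 21, and Thrb and Nr5a2, which encode nuclear receptors of liver, had 18 each. No member lay nearest to Cyp4a14, Acot3 or Apoa4.

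Motifs were searched on both strands within 100 bp of each peak centre, and beside them in windows moved by 10000 bp to each side. DR1, written AGGTCANAGGTCA with at most 1 mismatch in its fixed bases, was in 2.88% of the member windows and in 0.513% of the moved ones. HNF4A, a nuclear receptor of hepatocytes whose element resembles DR1, was searched as CAAAGTCCA and was in 2.76% against 0.312%. The forkhead motif TGTTTNC of FOXA was in 26.5% against 16.8%, the C/EBP motif TTGCNNAA in 18.8% against 8.16%, the STAT motif TTCNNNGAA in 8.65% against 6.17% and the AP-1 motif TGANTCA in 9.09% against 5.97%. At promoter peaks DR1 was in 1.09% and the ETS motif CCGGAAG in 10.1%, whereas ETS was in 1.13% of the member windows. Members on both PPARα peak lists of Ppara WT held DR1 in 4.43%, and members on neither list in 2.26%. G and C made up 48.2% of bases in member windows, 45.3% in moved windows and 59.9% at promoter peaks, so the windows differed in base composition. A match describes the letters only.

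**Figure D1:**
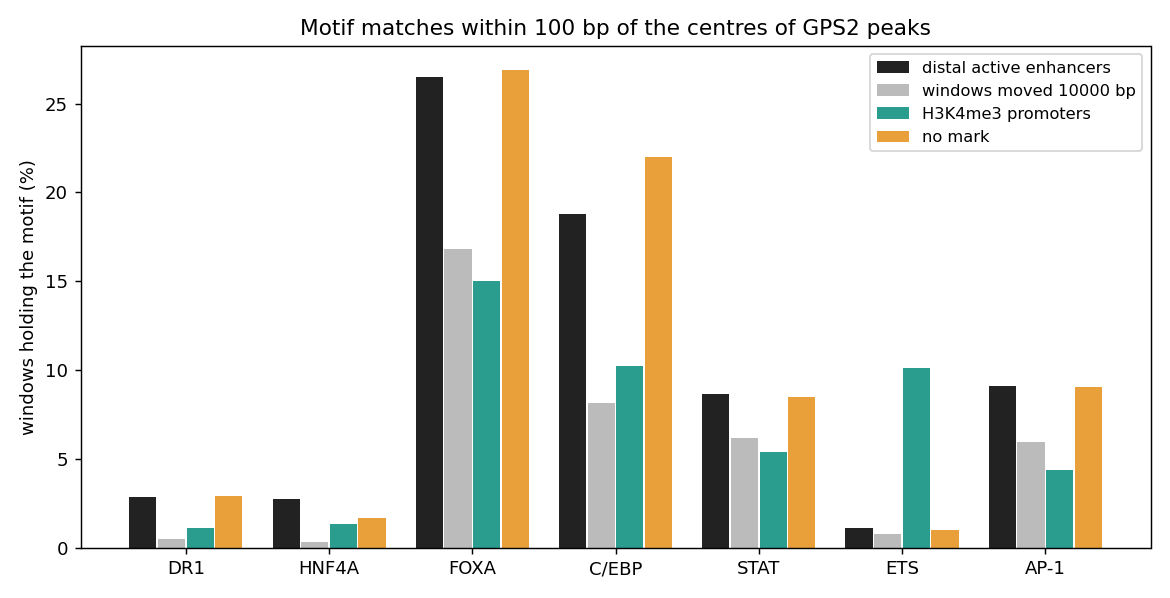
The y axis gives the share of windows, in percent, with at least 1 match to each motif on the x axis, for members, for the same windows moved by 10000 bp, for promoter peaks and for peaks without marks. FOXA was in 26.5% of member windows and C/EBP in 18.8%, and the ETS motif was highest at promoter peaks with 10.1%.

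In the Gps2 line the members held 438927 tags in the WT library and 16911 in the LKO library. Scaled to library size this was 283229 tags per 10 M (95% Poisson interval 282392 to 284068) against 11433 (11262 to 11607), or 24.8-fold (24.4 to 25.2) more in WT. There was 1 library a group and the WT library chose the members, so no test was made, and the intervals cover counting error only. A member held a median of 19 tags in WT, with quartiles of 12 and 32 and a range of 5 to 196. In LKO the highest member had 10 tags and 7037 members (40.3%) had 0, a count that allows up to 3. The GPS2 list of LKO liver had 52 peaks, of which 0 were members.

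The 5 members with most GPS2 tags lay near Hjurp (196 tags in WT and 9 in LKO), again near Hjurp (194 and 5), near Ptgds (193 and 1), in an exon near Plpp5 (163 and 1) and in an intron of Gabbr2 (160 and 0). Ptgds encodes a prostaglandin D synthase. Across members the tags of the Gps2 WT library ranked like those of other readouts in WT liver, with Spearman's rho of 0.86 for GPS2 of the Ncor line (14405 members), 0.74 for NCOR of the Gps2 line (16137), 0.81 for PPARα of the Ncor line (16259) and 0.29 for H3K27ac (17459). These are descriptions over peaks that share libraries, tag depth and base composition. All tags at the members, summed per library, are drawn by comparison.

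**Figure D2:**
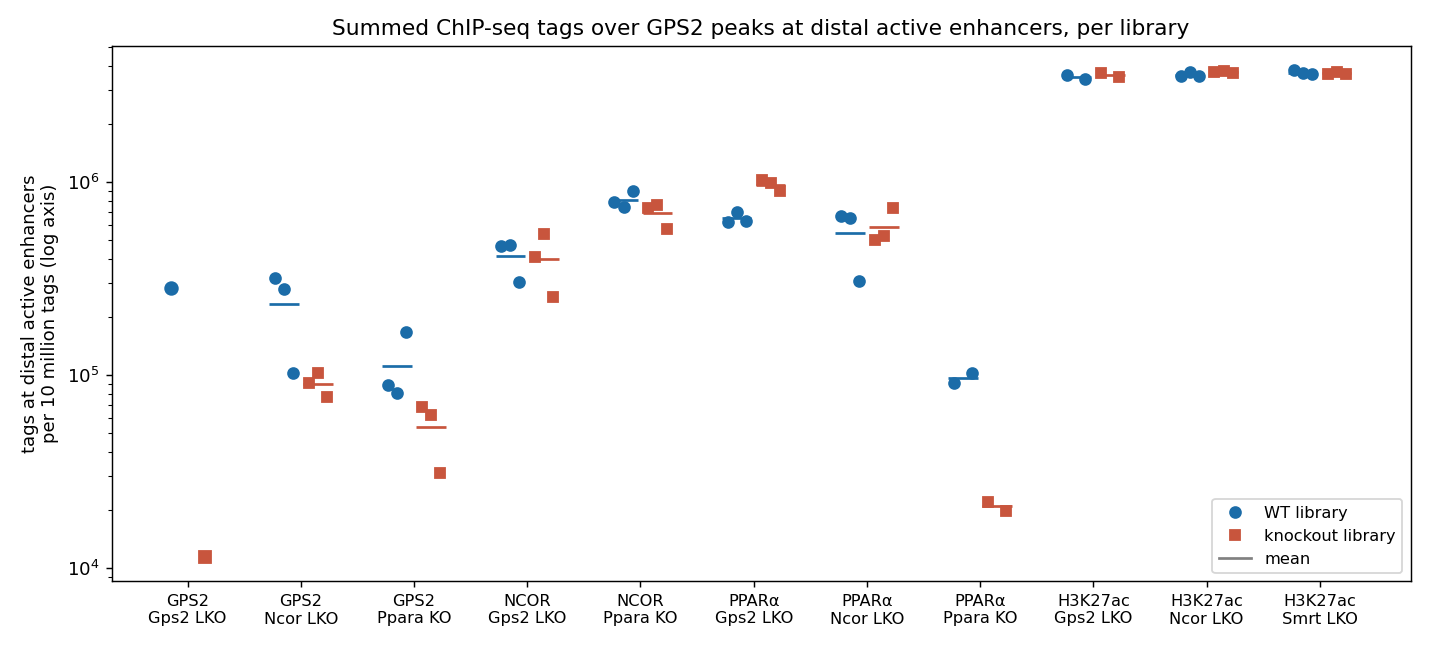
Each point is 1 library, the y axis (log scale) gives the summed tags at members per 10 M tags, and the x axis lists the antibody and the line. Blue circles are WT, red squares are knockout libraries and lines are group means, with none for GPS2 in the Gps2 line, which had 1 library a group. The PPARα libraries of Gps2 WT count as 1 sample in the tests. WT and knockout points lie apart for GPS2 and for PPARα in the Gps2 and Ppara lines. For GPS2 in the Ncor line the lowest WT point is almost level with the highest LKO point. H3K27ac lies between 3412174 and 3796699 in every library.

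GPS2 at the members was lower in Ncor LKO than in WT. The WT libraries had 319504, 278591 and 103127 tags per 10 M at the members and the LKO libraries 90639, 102350 and 77456. WT replicate 3 was far below the other WT libraries and only just above the highest LKO library, and the groups did not overlap. Means were 233741 ± 114949 (SD, n = 3) and 90149 ± 12454 (n = 3), a ratio of 0.386 with an exact permutation p of 0.1, the smallest that 3 against 3 allows (0.5 adjusted over 10 comparisons). Divided by the tags at promoter peaks, the log2 ratio was 0.13 ± 0.20 and 0.05 ± 0.08 (exact permutation p = 0.6, where 0.1 is the smallest possible). The median log2 fold change was −1.33 at members and −1.18 at promoter peaks. 80.2%, 62.9% and 29.4% of members were on the WT peak lists, and 25%, 28.2% and 17.8% on the LKO lists.

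Peak by peak, edgeR called a change at an adjusted p below 0.05, with tags scaled to library totals and p-values adjusted over every peak of the table. In Ncor LKO 7 of 14467 peaks on members (0.0484%) had fallen and 0 had risen, where 0.0338% of all 56278 peaks had fallen. Over all peaks the median log2 fold change was −1.12. With TMM scaling, which centres the bulk of peaks on 0, the median of all peaks was −0.04 and that of members −0.23, and 24 peaks on members rose and 129 fell, beside 1.78% and 0.458% of all peaks. Counts turned on WT replicate 3, because without it 11863 peaks on members fell and 1 rose, and without any other library 0 were called. The share of all peaks under these settings is not given here, so the counts describe the setting and not the members.

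The member 61359 bp upstream of Mroh2b, in a LINE repeat, had 68.0, 54.0 and 26.3 GPS2 tags per 10 M in WT and 2.96, 4.13 and 4.67 in Ncor LKO. It fell by 3.63 on the log2 scale (SE 0.69, edgeR adjusted p = 0.00821). The call was lost (adjusted p up to 0.377) when any library but WT replicate 3 was left out. No called GPS2 peak on a member in Ncor LKO had a mean of at least 50 tags a library, so this fall rests on few tags. In an intron of Cyp4a10, 1029 bp from the TSS, the levels were 58.6, 49.1 and 10.7 against 9.86, 4.13 and 8.83, and the difference of −2.35 (SE 0.64) had an edgeR adjusted p of 0.0761. It was called with TMM (adjusted p = 0.0438), after removal of low counts (0.0496) and without WT replicate 3 (3.4e-13). At Pck1, the gene of the first enzyme of gluconeogenesis, they were 63.6, 56.5 and 12.3 against 14.8, 9.45 and 9.87 (edgeR adjusted p = 0.0761), and at Pdk4 49.7, 22.5 and 9.65 against 13.3, 8.27 and 7.27 (edgeR adjusted p = 0.0985). Without WT replicate 3 both were called (2.3e-11 and 6.8e-07), and Pck1 also after removal of low counts (0.0496).

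In Ppara KO the GPS2 level at members was also lower. WT libraries had 88763, 81008 and 166609 tags per 10 M and KO libraries 68344, 61980 and 31025. Every KO library was below every WT library, and the ratio of means was 0.48 (exact permutation p = 0.1, the smallest possible, 0.5 adjusted over 10 comparisons). The log2 ratio to promoter peaks went from −0.03 ± 0.18 to −0.33 ± 0.16 (SD, n = 3 each), again without overlap and with an exact permutation p of 0.1 (0.667 adjusted). 34 of 8917 peaks on members (0.381%) fell and 0 rose, beside 0.273% of all peaks that fell. The median of members was −1.05 and that of all peaks −0.93, and under TMM scaling they were −0.10 and 0.01, with 1 rise and 13 falls at members beside 0.0539% and 0.097% of all peaks.

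Members bound by PPARα held most of these falls. 30 of the 34 were among the 2890 peaks on members of both PPARα lists of Ppara WT, whose median was −1.12. Of the 4017 peaks on members of neither list 1 fell, with a median of −1.0. Of all falls 29 were among the 4489 members with most GPS2 tags in the Gps2 line.

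The Vnn1 member, 9583 bp upstream of the gene of the enzyme pantetheinase, a PPARα target, had 16, 14.3 and 20.8 GPS2 tags per 10 M in Ppara WT and 2.18, 2.27 and 1.44 in KO. It fell by 3.06 on the log2 scale (SE 0.68, edgeR adjusted p = 0.00901), and the call was lost without WT replicate 1 or any KO library (adjusted p up to 0.272). A member 223033 bp upstream of Fam19a5, 1.59 megabases from the member at Ppara itself, had 11.1, 10.4 and 22.3 against 1.46, 0.757 and 2.16, and fell by 3.23 (SE 0.71, edgeR adjusted p = 0.00864), which was lost without WT replicate 3, KO replicate 1 or KO replicate 2 (adjusted p up to 0.351). The part of its nearness to the deleted gene in the result was not tested. No called GPS2 peak on a member in Ppara KO had a mean of at least 50 tags a library. The falls at Vnn1 and Fam19a5 thus rest on few tags. At Cyp4a10 the tags were 25.7, 33.2 and 42.3 against 10.9, 6.05 and 6.49, a difference of −2.09 with an edgeR adjusted p of 0.0609, or 0.0409 after removal of low counts. Single libraries mattered, since without KO replicate 2 0 peaks on members were called and without KO replicate 1, KO replicate 3, WT replicate 1 or WT replicate 3 there were 3, 11, 13 and 12.

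NCOR was at most members in the Gps2 and Ppara lines, where it was measured. In the Gps2 line 77.4%, 78.1% and 62.4% of members were on the WT lists of NCOR peaks and 74.7%, 80.1% and 58.2% on the LKO lists. Summed tags per 10 M were 469402, 472338 and 302722 in WT and 410513, 535791 and 253735 in Gps2 LKO. The groups overlapped and the ratio of means was 0.964 (exact permutation p = 1). The log2 ratio to promoter peaks was 0.61 ± 0.03 in WT and 0.66 ± 0.03 in LKO (SD, n = 3 each, exact permutation p = 0.2).

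Of 16027 NCOR peaks on members 0 were called by edgeR in Gps2 LKO, beside 0.0173% of all peaks, and 300 had an unadjusted p under 0.05. TMM scaling called 45 higher and 47 lower, beside 0.286% and 0.158% of all peaks, and DESeq2 called 7 and 8. Without LKO replicate 3, 4 rose and 7 fell. Cyp4a10 had 61.9, 56.4 and 40.6 NCOR tags per 10 M in WT and 55.9, 93.6 and 53.2 in LKO, with overlapping groups and an edgeR adjusted p of 1.

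In the Ppara line 89.2%, 88.4% and 88.9% of members were on NCOR lists of WT and 86.8%, 87.5% and 81.7% on those of KO. The summed level was 792617, 746702 and 896021 in WT and 732840, 760672 and 573813 in KO, with a ratio of means of 0.849 (exact permutation p = 0.2). Fewer NCOR tags were found at a subset, as 770 of 16929 peaks on members (4.55%) fell and 13 (0.0768%) rose, beside 2.51% and 0.136% of all peaks. The median was −0.26 at members and −0.32 over all peaks, so the called falls were more frequent than over all peaks although the median was not lower. TMM scaling, with medians of 0.05 and −0.02, left 391 falls and 233 rises at members, beside 1.05% and 0.759% of all peaks. Both falls and rises were then more frequent at members than over all peaks. Among promoter peaks 1.2% fell and among peaks without marks 8.97%. The falls at members were 431 without WT replicate 1, 359 without WT replicate 3, 496 without KO replicate 1 and 445 without KO replicate 3. Members of both PPARα lists held 337 falls in 3271 peaks and members of neither list 289 in 10762.

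The Vnn1 member went from 56.9, 60.2 and 53.1 NCOR tags per 10 M in WT to 13.9, 19.5 and 13.5 in Ppara KO. Here NCOR fell by 1.84 on the log2 scale (SE 0.31, edgeR adjusted p = 7.9e-07). At Cyp4a10 the levels were 88.6, 108 and 80.9 against 62.1, 54.5 and 27.8 and fell by 0.95 (SE 0.22, edgeR adjusted p = 0.00198), which was lost without KO replicate 3 (adjusted p = 0.0571) and with DESeq2 (0.252). Pdk4 kept 153, 146 and 133 tags in KO beside 146, 138 and 168 in WT. The loss of NCOR was thus not shared by all members at PPARα target genes.

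The greatest NCOR falls with enough tags were at Fam19a5, with 81.3, 78.3 and 84.3 tags per 10 M in WT and 11.4, 10.8 and 8.54 in KO (−2.98, SE 0.30, edgeR adjusted p = 5e-19), and in an intron at Epha2, an ephrin receptor gene, with 86.2, 102 and 91.0 against 11.4, 19.5 and 10.7 (−2.72, SE 0.27, edgeR adjusted p = 4e-19). NCOR rose at C4a, a complement gene, from 41.4, 31.8 and 18.5 to 65.4, 69.3 and 50.5, by 1.01 on the log2 scale (edgeR adjusted p = 0.0109). It rose at Rnf44, a RING finger gene, from 43.1, 26.7 and 34.5 to 58.9, 72.7 and 73.3, by 0.97 (edgeR adjusted p = 0.0094). Both rises were lost when some single libraries were left out, the highest adjusted p being 0.215 at C4a without WT replicate 3 and 0.0724 at Rnf44 without WT replicate 2.

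The antibody check for PPARα came from the Ppara line. Summed tags at members were 91103 and 102998 per 10 M in WT and 21981 and 19911 in KO, so 0.216 of the WT mean was still counted with no PPARα in the animal. The exact permutation p was 0.33, the smallest for 2 against 2. 24.8% and 29.5% of members were on the WT lists and 0.0859% and 0.103% on the KO lists. 5162 of 12863 peaks on members (40.1%) fell and 0 rose, beside 27.6% of all peaks. The median was −1.96 at members and −1.68 over all peaks, and under TMM scaling −0.53 and −0.22, with 10 rises and 668 falls at members beside 0.45% and 3.15% of all peaks. After removal of low counts 3789 of 3816 peaks on members (99.3%) and 97.7% of all peaks fell, so the share at members was near that of all peaks. Without either WT library 0 were called.

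Strong PPARα peaks on members had few tags left in Ppara KO, both at its target genes and at other genes. The Ehhadh member had 53.8 and 61.2 tags per 10 M in WT and 3.43 and 2.2 in KO and fell by 4.30 on the log2 scale (edgeR adjusted p = 1.2e-06). Plin2, which coats lipid droplets, had 41.8 and 55.1 against 1.37 and 2.2 and fell by 4.70 (edgeR adjusted p = 2.9e-06). The second Hjurp member, with the second highest GPS2 count, had 79.3 and 77.2 against 6.87 and 5.86 and fell by 3.60 (edgeR adjusted p = 7.2e-07). Ces1e, a carboxylesterase gene, had 63.0 and 77.2 against 4.12 and 3.66 and fell by 4.13 (edgeR adjusted p = 7.2e-07).

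Among the members printed above, G6pc, Pdk4 and Cyp4a10 fell in the same comparison and Fgf21, with 4.25 and 9.94 tags per 10 M in WT and 2.75 and 2.93 in KO, was not called (−1.28, edgeR adjusted p = 0.183). G6pc with the exact DR1 had 22.7 and 29.1 against 2.75 and 0.733 and fell by 3.80 (edgeR adjusted p = 4.2e-05). Pdk4 had 17.7 and 19.1 against 4.12 and 2.93 (−2.35, edgeR adjusted p = 0.000767), and Cyp4a10 had 11.3 and 16.8 against 0.687 and 3.66 (−2.67, edgeR adjusted p = 0.0034). Under TMM the adjusted p was 0.423 at Pdk4 and 0.373 at Cyp4a10. At Vnn1 there were 34.7 and 38.2 tags per 10 M in WT, and 0 and 1.47 in KO. Every one of these calls was lost without either WT library (adjusted p of 0.0751 to 0.149).

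In the Gps2 line the members held more PPARα tags in LKO. The WT libraries had 620472, 698722 and 631855 tags per 10 M and the LKO libraries 1024310, 987052 and 899315, all above WT. The 3 WT libraries differed from each other by no more than sampling noise (variance ratio 0.923 to 0.937, where 1 is counting error alone) and were therefore counted as 1 sample of 650350. The ratio of means was 1.49, with an exact permutation p of 0.5, the smallest for 1 against 3. The log2 ratio to promoter peaks was 0.45 in WT and 0.57 ± 0.02 (SD, n = 3) in LKO, with the same exact permutation p of 0.5. 72.8%, 79.1% and 74.8% of members were on the WT lists and 79.3%, 83.1% and 82.4% on the LKO lists.

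In this fit the WT arm counted as 1 sample, so the spread between samples came from the LKO libraries alone and WT was assumed to vary like them. 5780 of 15851 PPARα peaks on members (36.5%) rose in Gps2 LKO and 22 (0.139%) fell, beside 21.5% and 0.147% of all peaks. The median rise was 0.62 at members and 0.62 over all peaks. Under TMM scaling both medians were 0.02, and 59 peaks on members rose and 90 fell, beside 0.539% and 0.434% of all peaks. DESeq2 with its own size factors called 0 higher and 1 lower. Of promoter peaks 13.6% rose with a median of 0.44, and of peaks without marks 46.3% with a median of 0.78. Leaving out WT replicate 1, LKO replicate 2 or LKO replicate 3 reduced the rises at members to 3759, 3232 and 3420.

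The p-values of single peaks rest on the same fit of 1 against 3 samples. The Ly86 member, in an intron, had 27.8, 20.9 and 23.7 PPARα tags per 10 M in WT and 114, 93.8 and 71.5 in Gps2 LKO, and rose by 1.93 on the log2 scale (SE 0.28, edgeR adjusted p = 9.9e-09). Gadd45g, a stress response gene, had 16.5, 18 and 18 against 49.4, 65.4 and 87.4 and rose by 1.98 (SE 0.29, edgeR adjusted p = 2.8e-08). Both rises kept an adjusted p below 0.05 with TMM, but not with DESeq2 (0.242 and 0.559). At Pdk4 the levels were 75.9, 86.4 and 69.9 against 144, 113 and 96.7, and the difference of 0.57 had an edgeR adjusted p of 0.0738. It was called with each library as a sample (adjusted p = 0.0034) and without WT replicate 2 or LKO replicate 3 (0.0472 and 0.031), and it was −0.04 under TMM and −0.02 with DESeq2. Mroh2b, where GPS2 was lower in Ncor LKO, had 156, 162 and 180 against 93.1, 72.9 and 76.2 and fell by 1.05 (SE 0.23, edgeR adjusted p = 0.000275). Pcsk1, the gene of a prohormone convertase, had 79.7, 78.8 and 95.8 against 39.1, 71.0 and 26.4 and fell by 0.95 (edgeR adjusted p = 0.00201), a call lost without LKO replicate 3 (adjusted p = 0.12).

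PPARα in the Ncor line varied more within WT than between groups. The WT libraries had 670542, 654194 and 306865 tags per 10 M at members and the LKO libraries 500454, 527623 and 731941, which gave a ratio of 1.08 (exact permutation p = 0.8). 86.7%, 84.6% and 72.5% of members were on WT lists and 80.7%, 81.8% and 83.7% on LKO lists. 3 of 16280 peaks on members rose and 8 fell, beside 0.196% of all peaks called in either direction. TMM scaling gave 272 rises and 141 falls, beside 1.27% and 0.464% of all peaks. Without WT replicate 3, the low library, 22 rose and 183 fell, and without any other library 0 to 3 were called.

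Cyp4a10 had 72.2, 73.7 and 24.7 PPARα tags in Ncor WT and 29.7, 25.6 and 37.7 in LKO, with an edgeR adjusted p of 1. The same difference was called with TMM (−0.94, adjusted p = 0.00722), with DESeq2 (−0.93, 0.0261) and without WT replicate 3 (−1.24, 0.012). Sec61g, a translocon subunit gene, had 81.4, 67.8 and 13.8 against 7.41, 9.07 and 12.8 (−2.47, edgeR adjusted p = 0.0109). An intron of Atg4a, the gene of an autophagy protease on the X chromosome, had 43.2, 29.9 and 9.03 against 2.28, 3.73 and 5.47 (−2.81, edgeR adjusted p = 0.00371). Both falls were lost when any library but WT replicate 3 was left out (adjusted p of 0.0891 to 0.342).

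**Figure D3:**
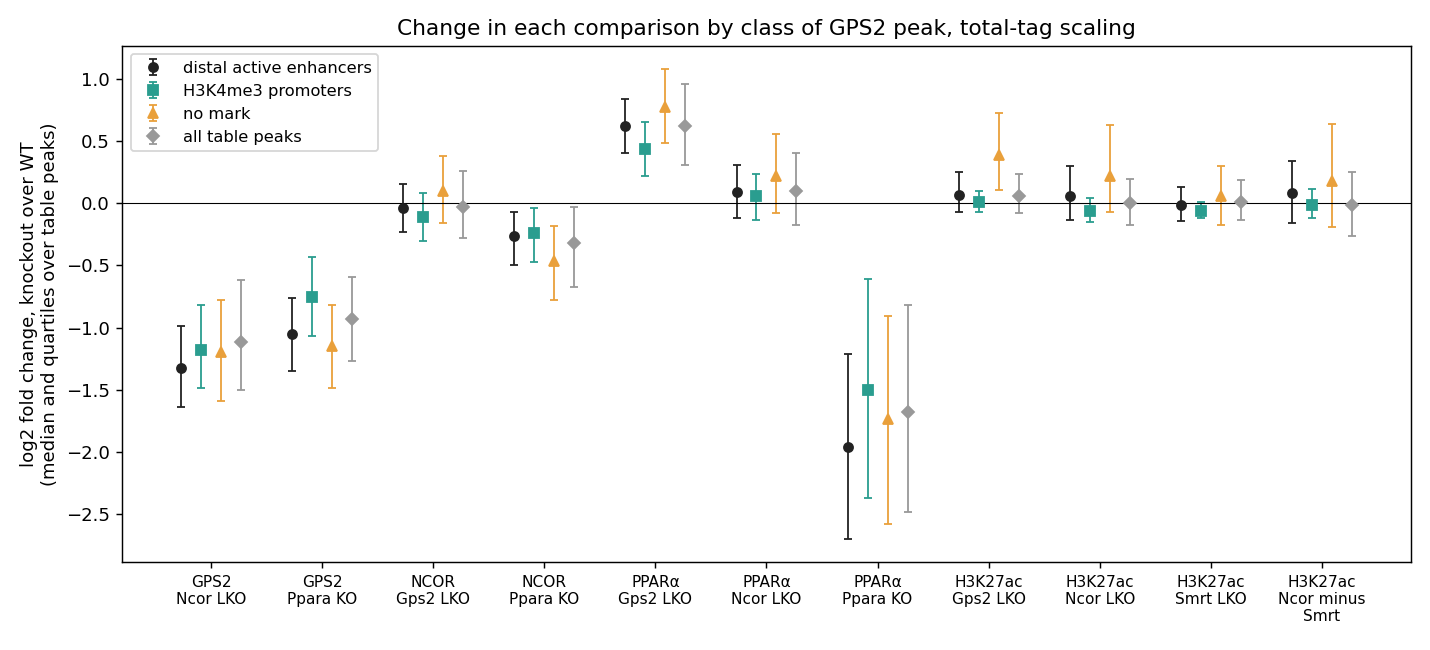
Each symbol is the median log2 fold change of knockout over WT over the table peaks of 1 class in 1 comparison, with bars from the lower to the upper quartile, scaled to library totals. Medians of members were −1.33 for GPS2 in Ncor LKO, −1.05 for GPS2 in Ppara KO, −1.96 for PPARα in Ppara KO and 0.62 for PPARα in Gps2 LKO, and those of H3K27ac lay from −0.01 to 0.08.

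H3K27ac at the members as a whole moved little in any line. In the Gps2 line the libraries had 3593178 and 3412174 tags per 10 M in WT and 3676410 and 3511613 in LKO, a ratio of 1.03 (exact permutation p = 0.667). The Ncor line had 3539757, 3710178 and 3541309 against 3724327, 3751666 and 3692675, also 1.03 (exact permutation p = 0.2). The Smrt line had 3796699, 3655483 and 3626900 against 3617176, 3730439 and 3650823, a ratio of 0.993 (exact permutation p = 0.6). 95.5% and 93.5% of members were on the H3K27ac lists of Gps2 LKO, 91.3% to 94.2% on those of Ncor LKO and 87.8% to 89.4% on those of Smrt LKO. An H3K27ac row is wider than a GPS2 peak, with a median of 3940 bp in the Gps2 table, 30.1% of the rows held several members and 18.5% also a promoter peak. Members needed an H3K27ac peak in both Gps2 WT libraries, so enhancers acetylated in LKO alone are not among them.

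In Gps2 LKO 233 of 11941 H3K27ac rows on members (1.95%) rose and 55 (0.461%) fell, beside 1.21% and 0.212% of all rows. The WT libraries of this comparison also chose the members, so the shares beside those of all rows are a description only. Of rows on peaks without marks, chosen for no H3K27ac peak in these WT libraries, 5.8% rose and 0% fell. With TMM scaling 122 rose and 57 fell, beside 0.605% and 0.206% of all rows. Leaving out WT replicate 1 left 0 calls and WT replicate 2 left 1, whereas without LKO replicate 1 there were 697 rises and 625 falls and without LKO replicate 2 607 and 108. All calls of this comparison that are named here were therefore lost when either WT library was left out.

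The Fgf21 row had 193 and 260 H3K27ac tags per 10 M in WT and 438 and 437 in Gps2 LKO, and rose by 0.95 on the log2 scale (SE 0.13, edgeR adjusted p = 0.0232). Ptgds had 110 and 105 against 192 and 176 and rose by 0.78 (edgeR adjusted p = 0.0232). Cux2, a homeobox repressor gene, had 27.6 and 28.9 against 91.4 and 142 and rose by 2.04 (SE 0.23, edgeR adjusted p = 0.0119), and Fam19a2 had 30.0 and 46.3 against 128 and 145 and rose by 1.83 (edgeR adjusted p = 0.011). At Cyp4a10 the row had 144 and 193 against 257 and 333, and its difference of 0.80 had an edgeR adjusted p of 0.0653. The rise at Cyp4a10 was called in 5 of 9 other settings, such as DESeq2 (adjusted p = 0.0146), all rows of the table (0.026) and either LKO library left out (4.9e-05 and 0.0194). Pdk4 had 74.7 and 63.7 against 116 and 95.4 (0.61, edgeR adjusted p = 0.112, and 0.0168 without LKO replicate 2), and Ehhadh differed by 0.05.

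H3K27ac fell at fewer members in Gps2 LKO. An intron of Dpy19l3 went from 416 and 298 tags per 10 M to 77.9 and 42.5 and fell by 2.57 (SE 0.26, edgeR adjusted p = 0.00932), in an LTR repeat. Gm21320, also in an LTR repeat, went from 60.8 and 47.7 to 9.78 and 8.83 and fell by 2.54 (edgeR adjusted p = 0.00792). C4a went from 477 and 359 to 160 and 81.2 and fell by 1.80 (edgeR adjusted p = 0.0283), and Atg4a from 265 and 216 to 121 and 99.9, by 1.13 (edgeR adjusted p = 0.0173). Mroh2b, which lost PPARα tags, went from 59.2 and 55.2 to 30.1 and 24.5 and fell by 1.07 (edgeR adjusted p = 0.0387).

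In Ncor LKO 754 of 12034 rows on members (6.27%) rose and 230 (1.91%) fell, beside 2.32% and 0.801% of all rows. TMM scaling gave 798 and 209 at members, and the shares of all rows under TMM are not given here. Among promoter peaks 0.831% of rows rose and among peaks without marks 7.44%. The rises were 284 of 2826 rows at members on both PPARα lists and 489 of 8925 at members on neither. Fewer were called without WT replicate 1 (315 rises and 99 falls), WT replicate 2 (164 and 40), WT replicate 3 (224 and 70) or LKO replicate 3 (482 and 140).

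Members at PPARα target genes were among those that rose. Pdk4 had 45.0, 49.4 and 49.2 H3K27ac tags per 10 M in WT and 114, 141 and 110 in Ncor LKO, and rose by 1.35 on the log2 scale (SE 0.14, edgeR adjusted p = 0.00277). Cyp4a10 had 275, 333 and 295 against 679, 733 and 755 and rose by 1.26 (SE 0.10, edgeR adjusted p = 0.00152). Ehhadh had 637, 615 and 663 against 1197, 1270 and 1045 and rose by 0.87 (SE 0.10, edgeR adjusted p = 0.00349). Vnn1 had 111, 91.6 and 101 against 161, 193 and 148 and rose by 0.73 (edgeR adjusted p = 0.0208), which was lost without any 1 of the WT libraries (adjusted p of 0.0529 to 0.112). In each of these the WT and LKO libraries did not overlap.

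The member 131232 bp upstream of Tab2, a signalling adaptor gene of the TAK1 kinase, had 54.6, 47.2 and 43.8 tags per 10 M in WT and 466, 600 and 219 in Ncor LKO, the steepest of the named rises at 3.14 (SE 0.31, edgeR adjusted p = 0.00235). Ptgds had 162, 175 and 298 against 576, 484 and 806 and rose by 1.55 (edgeR adjusted p = 0.00996). Pnpla5, a lipase gene, had 29.4, 8.87 and 19.5 against 264, 78.6 and 86.3 and rose by 2.90 (edgeR adjusted p = 0.0163). Abca1, the cholesterol exporter, had 874, 853 and 820 against 1310, 1206 and 1001 and rose by 0.47 (edgeR adjusted p = 0.0493). The Ptgds call was lost without WT replicate 2 (adjusted p = 0.0608), the Pnpla5 call without WT replicate 2 or 3 (0.0746 and 0.0766) and the Abca1 call without any single library but LKO replicate 3 (up to 0.188).

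Atg4a went down from 126, 84.4 and 64.0 to 7.46, 6.59 and 9.98 in Ncor LKO, by 3.50 on the log2 scale (SE 0.28, edgeR adjusted p = 0.00152). Col27a1, a collagen gene, went from 53.5, 36.7 and 16.1 to 7.01, 6.83 and 6.72 and fell by 2.36 (edgeR adjusted p = 0.0117), a call lost without WT replicate 2 (adjusted p = 0.055). A member 408911 bp from Ppargc1a, the gene of the coactivator PGC-1α, went from 14.8, 21.8 and 23.5 to 6.11, 3.9 and 5.64 and fell by 1.93 (edgeR adjusted p = 0.00512). At Atg4a the Smrt line had 6.71 to 7.36 tags in its WT libraries, which is the level of Ncor LKO, and the Gps2 WT libraries had 265 and 216. The control groups of the lines thus differed at this locus.

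Controls of the lines also differed at other members named for a change. At Cux2 the Smrt WT libraries had 577, 501 and 566 H3K27ac tags per 10 M, where Ncor WT had 15.4, 38.8 and 72. At Dpy19l3 they had 99.2, 219 and 68.3 against 645, 451 and 414, and at C4a 498, 421 and 329 against 1365, 1277 and 1095. At Tab2 Smrt WT alone ran from 66.3 to 543, a span that holds all Ncor LKO libraries but 1. Their part in the knockout changes was not tested.

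In the Smrt line 0 of 12034 rows on members were called by edgeR, as were 0% of all rows. 1129 rows on members had an unadjusted p under 0.05, and DESeq2 called 22 higher and 6 lower. Without LKO replicate 1, 1 row fell. Pdk4 had 126, 136 and 104 tags per 10 M in WT and 129, 168 and 160 in Smrt LKO (0.32, edgeR adjusted p = 0.834). Cyp4a10 had 546, 652 and 586 against 477, 673 and 596, and Ehhadh 871, 994 and 1023 against 850, 995 and 938, with overlapping groups at both. The Smrt WT libraries were above Ncor WT at all 3 genes, and at Pdk4 they were near the level of Ncor LKO.

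The test of the difference between the lines, the change in Ncor LKO minus the change in Smrt LKO, called 114 rows on members (0.947%) higher and 27 (0.224%) lower, beside 0.33% and 0.0959% of all rows. The difference was 1.29 at Cyp4a10 (SE 0.17, edgeR adjusted p = 0.01), 0.93 at Ehhadh (edgeR adjusted p = 0.0122) and 1.03 at Pdk4 (edgeR adjusted p = 0.0489), the last lost with TMM (adjusted p = 0.053) or when any library but Smrt WT replicate 3 was left out (adjusted p up to 0.122). The WT groups of the lines were not at one level at these genes, as given above, and the difference rests on both.

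**Figure D4:**
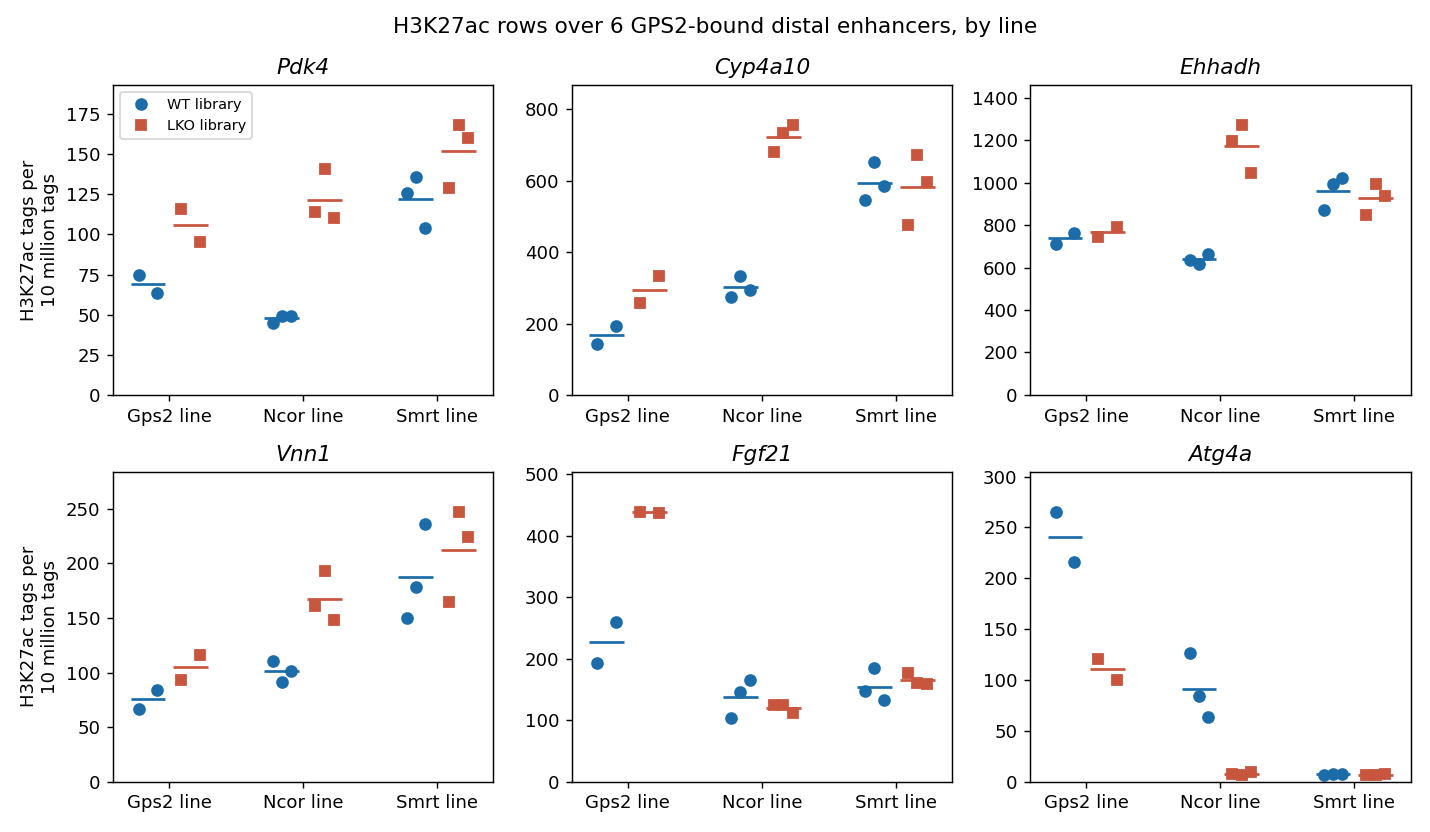
H3K27ac tags per 10 M (y axis from 0) in the rows over 6 members, by line on the x axis, with 1 point a library and lines for means. At Pdk4 and Cyp4a10 the 3 Ncor LKO libraries (110 to 141 and 679 to 755) lie above Ncor WT, the Smrt WT libraries start from higher levels, and at Atg4a both Smrt groups lie at 6.22 to 7.78.

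Part of the members were called in both the Ncor and the Gps2 line. Of 1194 members on rows that rose in Ncor LKO and 367 in Gps2 LKO, 109 were shared, which was 9.13% and 29.7% of the lists, where 6.27% of all rows on members rose in Ncor LKO. They include members at Ptgds, Cyp2b10, Cyp3a11, Elovl5 and Lipc, named after their values were seen. Of 342 and 96 members on rows that fell, 16 were shared (4.68% and 16.7%, where 1.91% of all rows on members fell in Ncor LKO), at genes that include Atg4a, Mroh2b and Mup21. These are descriptions, since rows of the tables hold several members.

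Gene lists were read by the members nearest to their genes, and since the lists were chosen with earlier results known no test of a list was made. The 35 PPARα target genes had members at 19 genes, 64 members in all. In Ncor LKO, where 6.27% of all rows on members rose, 6 of 33 H3K27ac rows on them rose and 0 fell (Acsl1, Cyp4a10, Ehhadh, Pdk4, Plin2 and Vnn1, with the Plin2 rise at another member than the one described above), with a median of 0.16 beside 0.06 at all members. In Gps2 LKO, where 1.95% of all rows on members rose, 2 of 31 rose, at Acot4 and Fgf21, and in Smrt LKO 0 of 33. In Ppara KO NCOR fell at 6 of 59 (4.55% of all peaks on members) and rose at 0, GPS2 fell at 1 of 35 (0.381% of all) and PPARα at 33 of 54 (40.1% of all). PPARα rose at 19 of 58 in Gps2 LKO (32.8%), below the 36.5% of all members.

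For the 23 xenobiotic genes, targets of the receptors CAR and PXR, 16 genes had 53 members. Here 9 of 29 H3K27ac rows rose in Gps2 LKO (31%) and 0 fell, at Cyp2b10, Cyp2c37, Cyp2c50, Cyp2c54, Cyp3a11, Cyp3a25 and Nr1i2, the gene of PXR. Their median of 0.44 stood beside 0.07 for all members. In Ncor LKO 4 of 32 rose and 0 fell, with a median of −0.01. Of these genes 14 were tested for RNA, and 9 rose and 2 fell in Gps2 LKO.

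At the 17 lipogenic genes, targets of LXR and SREBP1, 5 of 38 rows rose and 0 fell in Ncor LKO, at Elovl5, Me1 and Scd1. At the 19 cholesterol synthesis genes 3 of 29 rose and 0 fell, at Fdft1, Insig1 and Sc5d. In Gps2 LKO 1 of 36 and 0 of 29 rose. Bile acid and sterol export genes had 1 rise and 1 fall of 36 in Ncor LKO (Abca1 and Slco1a1) and 1 fall of 33 in Gps2 LKO, at Cyp7b1, a bile acid hydroxylase gene. Gluconeogenesis genes had 1 rise in Gps2 LKO and 1 fall in Ncor LKO, both at Ppargc1a. Clock genes had 5 rises and 2 falls of 34 in Ncor LKO, and hepatocyte transcription factor genes 5 rises and 0 falls of 90, the latter about the share of all rows on members (6.27% and 1.91%). Acute phase genes had 0 of 14 and plasma protein genes 0 of 19 called in Ncor LKO, and 0 of 15 and 0 of 21 in Gps2 LKO.

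RNA of the genes nearest to members was read in Gps2 LKO against WT. Gps2 itself had 261, 251, 266 and 240 normalised read counts in WT and 202, 157, 146 and 205 in LKO, 0.697-fold. The source of the Gps2 reads left in LKO was not tested. The RNA is of whole liver, where cells other than hepatocytes keep the gene. Fewer cells of a type and less RNA per cell cannot be told apart in such samples. Summed marker counts were higher in LKO for hepatocytes (1672045 to 1734800 in WT against 2266545 to 2709636, 3 of 6 genes higher and 0 lower), for macrophages (2156 to 2226 against 2851 to 3316, 6 of 7), stellate cells (2167 to 2248 against 3903 to 4124, 6 of 6), cholangiocytes (1024 to 1093 against 1450 to 1773, 3 of 5) and endothelial cells (1930 to 2057 against 2120 to 2291, 2 of 6), with 0 lower in any list. Alb alone had a mean of 1327568 in WT and 2058900 in LKO, so 1 gene made up most of the hepatocyte sum. The part of these marker differences in the RNA results was not tested.

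Of 4618 tested genes nearest to a member 1040 rose and 1357 fell in Gps2 LKO, beside 23.4% and 21.4% of all 12220 genes. The share that fell grew with the number of members, from 16.6% of 7602 genes with 0 members, through 24.3% with 1, 29.7% with 2 to 4 and 39.5% with 5 to 9, to 43.9% of 148 genes with 10 or more, while the share that rose went from 23.9% to 14.2%. After the trend of each library with exon length was taken out the shares that fell were 16.4% and 39.2% at the ends and those that rose 21.5% and 25%. The share that rose thus no longer went down with the number of members. LKO replicate 2 differed from the other LKO libraries by up to 29.1 times counting error, beside 1.69 to 2.53 in WT.

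**Figure D5:**
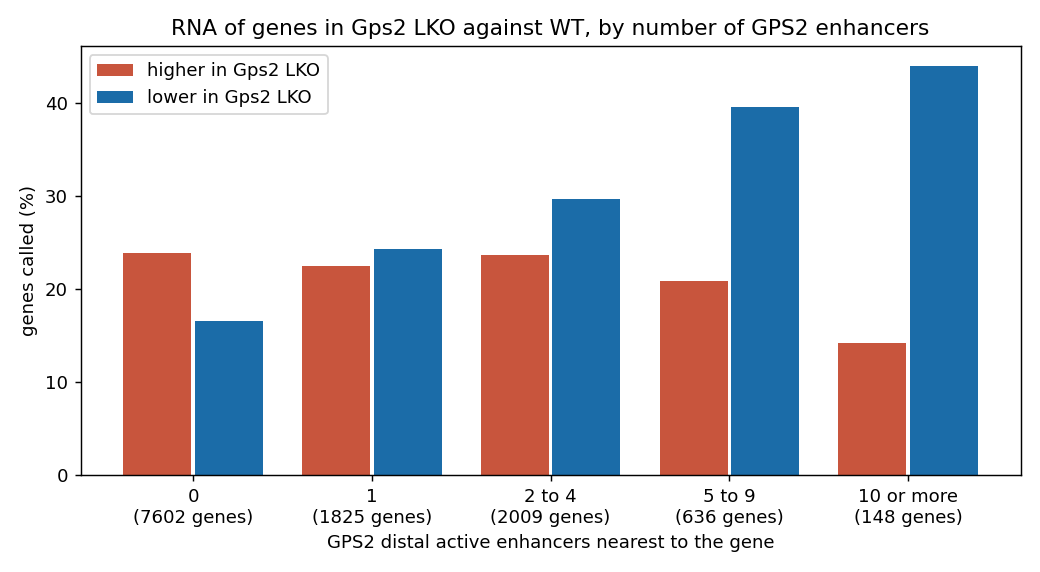
Bars give the percent of tested genes called higher (red) or lower (blue) in Gps2 LKO, and the x axis groups genes by the number of members nearest to them. The lower bars go from 16.6% to 43.9% and the higher bars from 23.9% to 14.2%, without the exon length correction.

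H3K27ac and RNA were set side by side in the Gps2 line. Of 139 tested genes nearest to a member on a row that rose in Gps2 LKO 74 (53.2%) rose in RNA, 11 (7.91%) fell and the rest were not called, beside 23.4% and 21.4% of all genes. Of 30 nearest to a member on a row that fell 2 (6.67%) rose and 22 (73.3%) fell. Of the genes nearest to members where PPARα rose, 557 of 2474 were higher (22.5%) and 771 lower (31.2%), about the split of all genes nearest to a member (22.5% and 29.4%). The H3K27ac and RNA libraries are different samples of the same line, and a row can reach the promoter of its gene.

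Fgf21 had 11.8, 7.56, 13.9 and 16.2 normalised counts in WT and 272, 200, 275 and 241 in Gps2 LKO, 20-fold more (edgeR adjusted p = 7.4e-10). Pdk4 had 23.7, 41.6, 45.3 and 32.4 against 78.3, 80, 77.8 and 89, 2.27-fold (edgeR adjusted p = 0.000146). Cyp4a10 had 303, 336, 302 and 339 against 597, 556, 450 and 560, 1.69-fold (edgeR adjusted p = 3.5e-05). At Cux2 the mean went from 5.41 ± 3.55 to 242 ± 51.3 (SD, n = 4 each), at Fam19a2 from 4.08 ± 1.59 to 128 ± 13.3 and at Pnpla5 from 4.57 ± 0.742 to 34.1 ± 4.98. C4a went from 493 ± 55 to 60.9 ± 3.73 and Dpy19l3 from 166 ± 14.7 to 29.1 ± 14.3. At Cux2, Fam19a2, Fgf21, C4a and Dpy19l3 RNA and H3K27ac had the same direction.

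Among the other genes with members Plin2 was 1.33-fold and Vnn1 1.31-fold higher in LKO (edgeR adjusted p = 0.000132 and 0.00122), and Angptl4, a lipase inhibitor gene and PPARα target, was 0.782-fold. Ehhadh was 1.08-fold (edgeR adjusted p = 0.0899). Of 19 PPARα target genes with members 11 rose and 3 fell. Scd1 and Fasn, enzymes of fatty acid synthesis, were 1.66-fold and 1.62-fold and Srebf1 1.23-fold higher, among 11 rises and 0 falls of 15 lipogenic genes. 8 of 11 cholesterol synthesis genes rose and 0 fell.

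Abca1 was 0.67-fold and Cyp7a1, which starts bile acid synthesis, 0.724-fold, among 3 rises and 5 falls of 13 bile acid and sterol export genes. Gluconeogenesis genes had 6 rises, with G6pc at 1.14-fold, and 2 falls, with Pck1 at 0.87-fold, of 10. Clock genes had 3 and 3 of 12, with Per2 at 0.645-fold, acute phase genes 4 and 6 of 15 and plasma protein genes 5 and 2 of 10, with Alb at 1.55-fold. Hepatocyte transcription factor genes mostly fell, with 2 rises and 13 falls of 20, Hnf4a being 0.754-fold and Cebpa 1.44-fold. Ncor1 and Ppara were 0.642-fold and 0.764-fold (edgeR adjusted p = 0.00213 and 0.0205, the latter lost without some single libraries with up to 0.0685), and with the length trend taken out their log2 differences were −0.25 and −0.12, the latter with an edgeR adjusted p of 0.101.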

How the data were processed

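The authors aligned ChIP-seq reads to mm9 with Bowtie (Bowtie2 in the submitters' notes), and called and merged peaks with HOMER. The deposited ChIP tables hold raw tag counts per merged peak, with library totals in the headers, and the score column of the deposited peak lists is 1 throughout, so only positions were used. RNA reads were aligned with HISAT2, and the deposited table holds raw read counts per gene. Its columns of the authors' own edgeR comparison were not used. Members and gene lists were chosen with earlier results of these data known. Counts were tested with edgeR 4.0.16 (quasi-likelihood, Benjamini-Hochberg adjustment over each whole table) on R 4.3.3. ChIP used library totals as library sizes, and RNA used TMM after filterByExpr. Most of these fits were also run on simulated counts with planted changes. There the fit for GPS2 in Ncor LKO called no planted change, so its few calls do not show that few peaks changed. The fit for H3K27ac in Gps2 LKO called more unchanged rows than any other simulated fit. Peaks on members overlap at least 1 bp of a member. A row on a member was not also counted in the shares of promoter peaks or of peaks without marks. The Gps2 H3K27ac rows needed a peak in at least 2 of the 4 libraries. Overlaps used bedtools 2.31.1 and DESeq2 1.42.0 was an alternative, as were TMM, filterByExpr, the replicate block and leaving out each library.

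Named regions were the 5 members with most GPS2 tags, the strongest member of preset metabolic genes, and the 2 largest called rises and falls per comparison with groups that did not overlap and a mean of at least 50 tags. The labels do not state that libraries are separate animals, so p-values measure the spread between these libraries, which may be technical. Replicate numbers were not used as pairs in the main fits, and whether they pair the samples was not settled. The 32 correlations of same-numbered deviations ran from −0.15 to 0.271. For NCOR in the Ppara line they were −0.0185, 0.255 and 0.271, beside −0.311 to 0.106 for libraries of different number. Input libraries were not used here, and the values of some named genes are not reported here.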

Additional observations from a re-analysis of the deposited data

Results flagged for a closer look

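The change of H3K27ac in Ncor LKO differed from that in Smrt LKO at 141 rows on members by edgeR's test of the difference, 114 higher and 27 lower. The difference was 1.29 on the log2 scale at Cyp4a10 (edgeR adjusted p = 0.01), 0.93 at Ehhadh (0.0122) and 1.03 at Pdk4 (0.0489). It was 1.81 at Scd1 (edgeR adjusted p = 0.0382), where Ncor WT had 206, 133 and 288 tags per 10 M and LKO 544, 373 and 302, and Smrt WT 223, 300 and 245 and LKO 151, 127 and 149. It was 2.45 in an intron of Fam151a (edgeR adjusted p = 0.00832) and 2.53 upstream of Pgrmc2 (0.0126, and 0.0509 without Ncor WT replicate 2). It was −3.48 at Atg4a (edgeR adjusted p = 0.00374), where the Smrt WT libraries were at the level of Ncor LKO. It was −2.51 at the member near Ppargc1a (edgeR adjusted p = 0.0265), where Smrt WT had 18.7, 11 and 17.1 tags per 10 M and LKO 33.1, 14.5 and 21.9. The Scd1 and Ppargc1a calls were lost when some single libraries were left out (adjusted p up to 0.096 and 0.0839).

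RNA values of the named genes were examined in 52 sets, each 1 gene in the 4 WT or the 4 LKO libraries, and in 3 of them 1 library stood apart from the rest, where chance gives about 1 in 20. LKO replicate 3 had 12137 normalised counts of Srebf1 where the other LKO libraries had 10477 to 10742, and 49230 of Pck1 where they had 41905 to 42892. LKO replicate 2 had 5547 of Ppara where the others had 3453 to 3766.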

How the results depend on the processing

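Counts of called peaks on members depended on scaling, test and single libraries in most ChIP comparisons, and for results that moved the cause was not tested. With TMM scaling the totals were 153 for GPS2 in Ncor LKO, 14 for GPS2 in Ppara KO, 92 for NCOR in Gps2 LKO, 678 for PPARα in Ppara KO and 179 for H3K27ac in Gps2 LKO. TMM turned the leading direction for PPARα in Gps2 LKO (149, 59 higher and 90 lower) and in Ncor LKO (413, 272 and 141). DESeq2 gave 47, 2, 15 and 260 for the first 4, 217 for NCOR in Ppara KO, 1 and 136 for PPARα in Gps2 LKO and Ncor LKO, both with the leading direction turned, and 1606, 28 and 594 for H3K27ac in Ncor LKO, Smrt LKO and their difference. Removing low counts first gave 831 for GPS2 in Ncor LKO, 72 for GPS2 in Ppara KO and 7 for PPARα in Ncor LKO. Counting each PPARα WT library of the Gps2 line as a sample gave 10015, and keeping all H3K27ac rows gave 435 in Gps2 LKO.

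The replicate block treats same-numbered libraries as pairs, which the correlations did not settle. With it the counts were 4446 for GPS2 in Ncor LKO and 0 for GPS2 in Ppara KO. NCOR had 70 and 482 in Gps2 LKO and Ppara KO. PPARα had 10114 in Gps2 LKO (each library as a sample), and 0 and 0 in Ncor LKO and Ppara KO. H3K27ac had 1124, 541 and 40 in Gps2 LKO, Ncor LKO and the difference of Ncor and Smrt. For H3K27ac in Smrt LKO the count stayed at 0, and RNA counts stayed within 1.5 times.

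Leaving out each replicate in turn gave 0 to 11864 and 0 to 32 calls for GPS2 in Ncor LKO and Ppara KO, 0 to 11 and 365 to 774 for NCOR in Gps2 LKO and Ppara KO, 3255 to 6548, 0 to 205 and 0 to 4217 for PPARα in Gps2 LKO, Ncor LKO and Ppara KO, 0 to 1322, 204 to 1185, 0 to 1 and 26 to 185 for H3K27ac in Gps2 LKO, Ncor LKO, Smrt LKO and the difference, and 1993 to 2953 for RNA. In the same fits the summed tags per 10 M, knockout minus WT, ran from −208899 to −100711 and from −73902 to −31102 for GPS2, from −82697 to 58331 and from −158453 to −65024 for NCOR, from 292834 to 355332, from −75696 to 106143 and from −82052 to −70157 for PPARα, and from 834 to 181838, from 97146 to 182356 and from −59945 to 24955 for H3K27ac, in the same order of lines. The log2 ratio to promoter peaks differed by −0.15 to 0.03 and −0.37 to −0.2 for GPS2, 0.03 to 0.06 and −0.03 to 0.01 for NCOR, 0.12 to 0.14, 0.03 to 0.08 and −0.39 to −0.27 for PPARα, and −0.00 to 0.03, 0.06 to 0.14 and 0.02 to 0.07 for H3K27ac.

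Taking only peaks with at least the median tag count left 10182 members, and other limits on distance or overlap gave 16517 to 19994. DR1 was in 0.223% of windows with no mismatch and in 1.98% within 50 bp. Of 1037 settings tried on 96 named values 856 changed neither direction nor call, 144 lost a call, 25 gained one and 12 turned the sign of a value that was not called. These were NCOR in Ppara KO at Pdk4 (0.25 with TMM and with DESeq2, −0.12 to 0.02 without single libraries) and Ehhadh (0.10 and 0.09), PPARα in Gps2 LKO at Pdk4 (−0.04 and −0.02), and H3K27ac at Ehhadh in Gps2 LKO (−0.00 and −0.01) and Smrt LKO (−0.12 to 0.01 without single libraries), and at Cyp4a10 in Smrt LKO (−0.15 to 0.09).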

Other observations

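Pol II was measured in 1 WT and 1 LKO library of the Gps2 line, with no replicate. Members held 55644 Pol II tags per 10 M in WT and 62342 in LKO, a ratio of 1.12. 14.7% of members were on the WT list of Pol II peaks and 16.6% on the LKO list. The log2 ratio to promoter peaks was −4.08 and −3.99. H3K4me3 peaks of Gps2 LKO liver, which the choice of members did not use, overlapped 5.74% and 3.55% of members in the 2 LKO libraries.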
